A study of Mus musculus with 12 samples.

Results

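The calcineurin and NFAT genes described here are 7 of the 24439 gene names in each library, chosen by name as the NFAT transcription factors *Nfatc1*, *Nfatc2* and *Nfatc3*, the calcineurin regulator *Rcan1*, and *Ppp3ca*, *Ppp3cb* and *Ppp3cc*, which encode the alternative catalytic A subunits of calcineurin. RNA-Seq was done on 12 libraries of mouse CD4 T blast cells (TB), which are spleen CD4 T cells of the strain C57BL/6 C42, isolated with CD4 microbeads, stimulated with 2 ug/ml of the mitogen concanavalin A (ConA) for 40 h and then grown in 50 U/ml IL-2. All animals of the strain carry a fragment of the human *IL3/CSF2* locus as a transgene. The cells were kept in IL-2 (TB IL-2) or deprived of it for 16 h (TB IL-2nil), and each kind was also given PMA (20 ng/ml) together with the calcium ionophore A23187 (2 uM) for 2 h (PMA/I), giving TB+ IL-2 and TB+ IL-2nil, with 3 libraries in each of the 4 groups. The age of the mice is not given in the sources used here. Nothing says whether the 3 libraries of a group came from separate animals. P-values therefore set a difference against the spread between these libraries, pooled over the groups, which may not be that between animals.

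Calcineurin is a phosphatase that is switched on by calcium and calmodulin and consists of a catalytic A and a regulatory B subunit. It removes phosphates from NFAT proteins in the cytoplasm, which then enter the nucleus and, in T cells, act with AP-1 on cytokine genes. Kinases and nuclear export return NFAT to the cytoplasm, RCAN proteins bind and inhibit calcineurin, and both *Rcan1* and *Nfatc1* are known as genes that NFAT itself can induce. PMA and ionophore bypass the T cell receptor, since PMA activates protein kinase C and the ionophore lets calcium in directly.

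*Il2*, which is switched on by this stimulus, went against the labels of 2 libraries. The library labelled TB IL-2nil replicate 3 had a deposited *Il2* value of 1368 FPKM, and the library labelled TB+ IL-2 replicate 3 had 0.29 FPKM. In the other libraries *Il2* was at most 1.18 FPKM without PMA/I and at least 1095 FPKM with it. The authors' own list of regulated genes holds a value for each library, and in that list these 2 libraries stand under each other's names, while the other 10 stand under their own. Here both were placed in each other's group, as in that list, and they remain named by their labels. For the 7 genes, changes of call with the libraries grouped by label or with both left out are stated with each comparison. The lists of other genes and markers named below held 77 tested genes, with 150 calls over the 4 comparisons between groups and the interaction defined below (limma, adjusted P under 0.05). By label only 2 of these 150 calls passed, both in TB+ IL-2nil against TB IL-2nil, *Nfat5* (adjusted P = 0.0413) and *Homer1* (adjusted P = 0.0487). With both libraries left out 119 passed, and the genes named below that did not are given with that adjusted P.

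By the markers fixed for this work, all groups held T cell RNA. The 8 T cell identity genes summed to between 2297 and 3205 TPM in every library (TPM is a level per transcript length, rescaled to the same total in each library and here scaled to a common upper quartile), with *Cd3e* at 275 to 479 TPM and *Cd4* at 100.2 to 371 TPM. The T cell identity genes were not level between groups, since 5 of the 8 were lower and 1 was higher in TB IL-2 than in TB IL-2nil (22.3% and 17.3% of all genes were), and *Cd4* differed by -1.30 in log2(TPM + 1) (adjusted P = 4.51e-04, and 0.614 by label).

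B cell markers moved with the groups. The sum of *Cd79a*, *Cd79b*, *Ms4a1* and *Pax5* was 9.38, 9.89 and 5.15 TPM in TB IL-2, 21.6, 27.4 and 22.6 TPM in TB IL-2nil, 3.17, 3.08 and 2.09 TPM in TB+ IL-2 and 7.15, 4.91 and 12.7 TPM in TB+ IL-2nil. The sums of TB IL-2nil lay above those of every other group. *Cd79b* reached the highest level of any of these genes, 15.1 TPM in a TB IL-2nil library, while *Pax5*, a transcription factor that defines B cells, was at most 1.12 TPM in any library and was listed at 0 in 1. The part of B cells in the results below was not tested.

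Markers of other cell types were read as well. The CD8 T cell markers *Cd8a* and *Cd8b1* summed to 6.91 to 31.9 TPM, with *Cd8b1* the more abundant, and the library with replicate number 1 was the highest in each group. Myeloid markers summed to at most 4.88 TPM and were led by *Cd68*, and NK cell markers summed to at most 0.303 TPM. No CD8 marker passed in any comparison by limma (0 at an unadjusted P under 0.05), and 1 myeloid marker, *Cd68*, passed in TB+ IL-2nil against TB IL-2nil (-0.62, adjusted P = 0.0139, and 0.0676 without both libraries placed against their labels). Of 5 regulatory T cell markers, 2 were higher and 1 lower in TB IL-2 than in TB IL-2nil, where 39.6% of all genes passed. *Lrrc32* was higher by 3.63 in log2(TPM + 1) (adjusted P = 2.75e-04, and 0.0655 by label), *Tnfrsf18* by 0.99 (adjusted P = 0.00311, and 0.247 by label), *Ctla4* was lower by -2.20 (adjusted P = 0.0186, and 0.389 by label), and *Foxp3* was at most 1.68 TPM in any library. With PMA/I, *Lrrc32* was lower in cells with IL-2 (-2.14, adjusted P = 0.00504) and *Tnfrsf18* higher in cells without it (0.55, adjusted P = 0.0321, and 0.0819 without both libraries). No other marker of the 5 passed in these fits, where 35.1% and 61.2% of all genes did. None passed in TB+ IL-2 against TB+ IL-2nil by limma (0 at an unadjusted P under 0.05), and the interaction passed for *Lrrc32* (-3.27, adjusted P = 0.0266, and 0.0583 without both libraries). With the replicate number as a block, 3 of the 5 were lower with PMA/I in IL-2 and 2 higher without IL-2. In those fits 46.3% and 69.1% of all genes passed. The blocked interaction passed for 2 of the 5, where 11.9% of all genes passed. Without both libraries, 1 was higher and 1 lower with PMA/I in IL-2, where 30.7% of all genes passed. As these are bulk samples, fewer cells of a type and less RNA per cell cannot be told apart.

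The depth of the libraries is not recorded in the FPKM tables, but ratios between low values give it in relative terms. The shallowest library was TB IL-2nil replicate 2, at 0.409 of the median depth, and the others lay between 0.783 and 1.25. The lowest members of the family are therefore least certain in that library.

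Sequence is shown for *Rcan1*, since it had the largest rise of the 7 genes and has 2 alternative transcription starts in the RefSeq table, which the gene-level values do not separate. *Rcan1* lies on the minus strand at chr16:92392198-92466391 (mm9, GENCODE M1 gene models). The 250 bases before each start are given 5′ to 3′ from the RefSeq promoter table (build GRCm38.p6), and both match mm9 exactly once. Capitals mark GGAAA, the core bound by NFAT, and TGANTCA, the AP-1 site, on either strand.
Rcan1, downstream start, chr16:92400324-92400573, minus strand: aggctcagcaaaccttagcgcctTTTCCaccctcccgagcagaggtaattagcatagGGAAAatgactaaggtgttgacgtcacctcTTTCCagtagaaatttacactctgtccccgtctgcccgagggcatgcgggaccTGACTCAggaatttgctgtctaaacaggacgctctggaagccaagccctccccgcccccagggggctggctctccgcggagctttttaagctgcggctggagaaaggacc
Rcan1, upstream start, chr16:92466415-92466664, minus strand: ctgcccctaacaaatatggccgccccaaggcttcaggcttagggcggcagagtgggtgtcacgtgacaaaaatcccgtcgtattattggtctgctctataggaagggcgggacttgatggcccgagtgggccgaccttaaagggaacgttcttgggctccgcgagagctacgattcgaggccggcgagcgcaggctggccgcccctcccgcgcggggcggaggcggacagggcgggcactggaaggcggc

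The window before the downstream start held GGAAA 3 times, at -227, -193 and -163 from the start, and TGANTCA once, at -110. The window before the upstream start held neither. Among 32851 promoter windows of this length, 55.6% held GGAAA at least once and 6.39% held it 3 times or more, while 6.75% held TGANTCA. The composite of the NFAT core followed after 3 bases by the AP-1 site, whose matches are also counted for both shorter motifs, was in 0.015% of windows and in none of the *Rcan1* windows. Of the 7 genes, 4 had an entry in the table. The windows of *Nfatc2* held GGAAA 3 times and 1 time, those of *Nfatc3* 1 time and 0 times, and that of *Ppp3cb* 3 times, with no TGANTCA in any of them. A match is a stretch of letters and not a measured binding site.

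PMA/I turned over the balance of the NFAT transcripts, with *Nfatc1* rising and *Nfatc2* and *Nfatc3* falling in cells with IL-2 as in cells without it. In TB+ IL-2 against TB IL-2, *Rcan1* and *Nfatc1* rose, *Nfatc2*, *Nfatc3* and *Ppp3cb* fell, and *Ppp3ca* and *Ppp3cc* did not pass the test. These were 5 of 7 genes at an adjusted P under 0.05 (limma, with Benjamini-Hochberg adjustment over 12442 genes), where 35.1% of all genes passed (11.8% higher and 23.3% lower). The groups did not overlap for the same 5 genes, against 51.7% of all genes. Over 3-fold as well were *Nfatc1*, *Nfatc2* and *Rcan1*, and 7.04% of all genes. The 7 genes had a median log2 difference of -0.18 and all genes of -0.22. Of the 4 B cell markers, 2 were lower in the same comparison, and their part was not tested.

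*Nfatc1* (chr18:80802944-80909810, minus strand) encodes the NFAT factor known to be induced during T cell activation. Its level was 47.4, 46.0 and 55.0 TPM in the TB IL-2 libraries and 178, 120.4 and 168 TPM in the TB+ IL-2 libraries. The lowest stimulated library was above the highest unstimulated one, and the mean went from 49.5 ± 4.83 to 155.5 ± 30.8 TPM (SD, n = 3). This was a log2 difference of 1.62 with a standard error (SE) of 0.21, or a 3.07-fold rise (adjusted P = 2.72e-04).

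*Nfatc2* (chr2:168301910-168427157, minus strand) encodes NFAT1, a factor present in resting T cells. Its level was 96.6, 118 and 65.8 TPM in TB IL-2 and 12.3, 13.4 and 18.3 TPM in TB+ IL-2. All stimulated libraries were far below all unstimulated ones. The log2 difference of -2.57 (SE 0.26) was a 5.94-fold fall (adjusted P = 4.39e-05) and the 68th lowest among the 12442 genes.

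*Nfatc3* (chr8:108582740-108654437, plus strand) encodes NFAT4, the third family member found in T cells. Its level was 75.2, 63.9 and 103 TPM in TB IL-2 and 21.6, 21.2 and 39.7 TPM in TB+ IL-2. The groups were apart, and the library placed in TB+ IL-2 against its label was the highest of the stimulated ones. It fell by 1.55 on the log2 scale (SE 0.30), which is 2.93-fold (adjusted P = 0.00237).

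*Rcan1*, the calcineurin inhibitor, was low in unstimulated cells and had the largest rise of the 7 genes in TB+ IL-2. It had 5.13, 4.08 and 3.98 TPM in TB IL-2 and 62.2, 37.8 and 24.4 TPM in TB+ IL-2. The stimulated libraries spread more widely than the unstimulated ones, with the library labelled TB IL-2nil replicate 3 at the low end. It rose by 2.88 in log2(TPM + 1) (SE 0.32, adjusted P = 8.40e-05), or 7.38-fold on that scale, on which the added 1 makes changes of low genes look smaller. It ranked 179th among rises.

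Of the calcineurin A genes, *Ppp3cb* (chr14:21318586-21365795, minus strand) went from 45.4, 52.1 and 50.2 TPM to 25.5, 34.5 and 36.0 TPM, so that the groups did not overlap. Its difference was -0.62 (SE 0.18, adjusted P = 0.0220). The call was lost when TB IL-2 replicate 2 (adjusted P = 0.0628), TB IL-2 replicate 3 (adjusted P = 0.0630) or TB+ IL-2 replicate 1 (adjusted P = 0.0917) was left out, under median-of-ratios scaling (-0.38, adjusted P = 0.142), with no scaling beyond TPM (-0.70, adjusted P = 0.142) and with no filter on low values (-0.47, adjusted P = 0.0593). *Ppp3ca* (chr3:136333088-136600691, plus strand) had 31.7, 27.6 and 28.8 TPM in TB IL-2 and 26.9, 24.3 and 28.0 TPM in TB+ IL-2, a log2 difference of -0.15 with a 95% confidence interval from -0.55 to 0.25. *Ppp3cc* (chr14:70617705-70689257, minus strand) had 41.0, 71.6 and 67.0 TPM against 34.9, 63.7 and 61.0 TPM, a log2 difference of -0.18 with an interval from -0.81 to 0.46. Both of these genes overlapped between the groups.

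**Figure D1:**
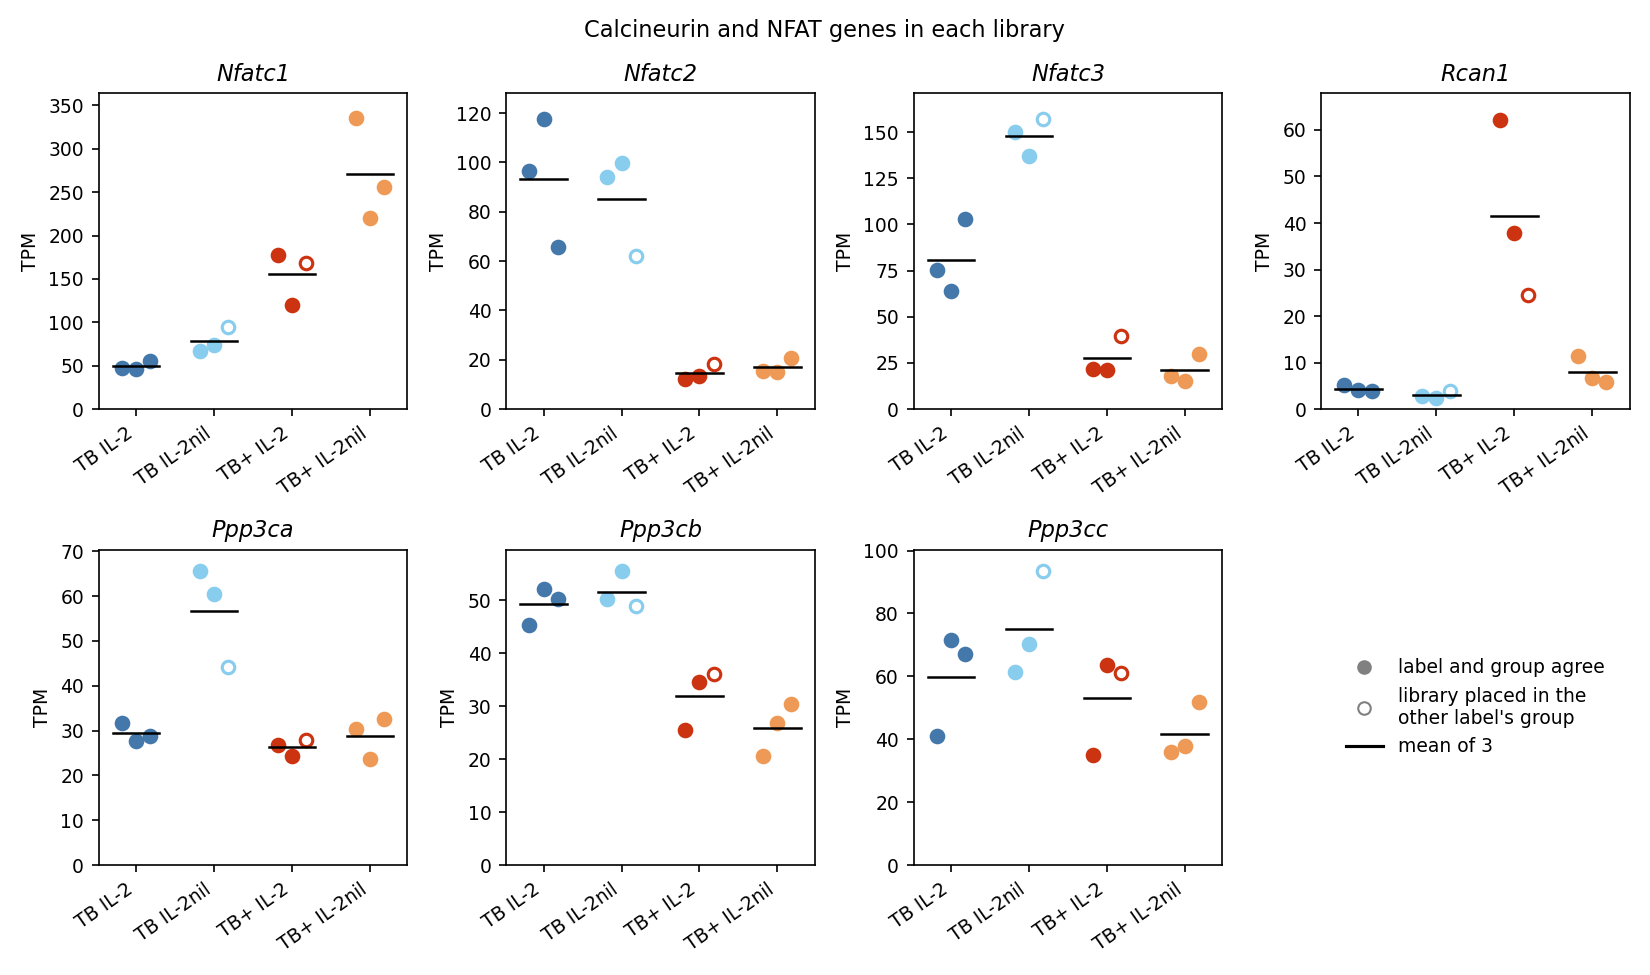
Level in TPM (scaled to a common upper quartile, linear axis from 0) of the 7 genes in each of the 12 libraries, by group. Points are libraries, black lines are means of 3, and open circles mark the 2 libraries placed in the group of each other's label. *Nfatc1* is highest in TB+ IL-2nil (220.4 to 335 TPM) and *Rcan1* in TB+ IL-2 (24.4 to 62.2 TPM), while *Nfatc2* and *Nfatc3* are low in both stimulated groups.

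With the libraries grouped by label, the directions of the 5 calls in TB+ IL-2 against TB IL-2 were the same but none passed, at adjusted P = 0.137 for *Nfatc1*, 0.237 for *Nfatc2*, 0.634 for *Nfatc3*, 0.354 for *Rcan1* and 0.483 for *Ppp3cb*. At an unadjusted P under 0.05, 3 of the 7 genes and 14% of all genes passed in that grouping. With both libraries left out, all 5 passed, as did 30.7% of all genes, and *Rcan1* had a log2 difference of 3.20 (adjusted P = 1.24e-04).

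In cells without IL-2, PMA/I moved all 7 genes. In TB+ IL-2nil against TB IL-2nil, *Nfatc1* and *Rcan1* rose and the other 5 fell, where 61.2% of all genes passed at an adjusted P under 0.05 (20.1% higher and 41.1% lower) and 64.1% did not overlap between the groups. Over 3-fold as well were *Nfatc1*, *Nfatc2* and *Nfatc3*, and 18.5% of all genes. The 7 genes had a median of -0.95 and all genes of -0.38. The median of all genes moved with the scaling, to -0.78 with none beyond TPM and to -0.08 with median-of-ratios scaling.

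*Nfatc1* had 66.5, 73.3 and 94.8 TPM in TB IL-2nil and 335, 220.4 and 256.5 TPM in TB+ IL-2nil, the highest values of this gene in the series. It rose by 1.77 (SE 0.21, 3.42-fold, adjusted P = 4.21e-05). *Rcan1* had 2.72, 2.39 and 3.88 TPM against 11.3, 6.66 and 5.91 TPM. All stimulated libraries were above all unstimulated ones, but the level stayed below that of every TB+ IL-2 library. The log2 difference of *Rcan1* was 1.14 (SE 0.32, adjusted P = 0.00926), with a pseudocount of 5 it was 0.68 (adjusted P = 0.0419), and with no scaling beyond TPM it was 0.66 and did not pass (adjusted P = 0.108).

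*Nfatc2* went from 94.1, 99.7 and 62.2 TPM to 15.4, 15.1 and 20.6 TPM, with a log2 difference of -2.25 (SE 0.26, 4.74-fold lower, adjusted P = 3.16e-05). *Nfatc3* went from 149.95, 137 and 157 TPM to 17.8, 15.0 and 29.8 TPM. This was the largest fall of the 7 genes in any comparison. Its log2 difference of -2.82 (SE 0.30, 7.08-fold lower, adjusted P = 1.72e-05) was the 151st lowest of all genes.

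Each of the 3 calcineurin A genes fell in cells without IL-2, where 41.1% of all genes were lower. *Ppp3ca* had 65.6, 60.4 and 44.1 TPM in TB IL-2nil and 30.3, 23.6 and 32.5 TPM in TB+ IL-2nil (log2 difference -0.95, SE 0.18, adjusted P = 9.14e-04). *Ppp3cb* had 50.3, 55.5 and 48.9 TPM against 20.5, 26.9 and 30.5 TPM (log2 difference -0.98, SE 0.18, adjusted P = 7.75e-04). *Ppp3cc* had 61.3, 70.3 and 93.5 TPM against 35.8, 37.8 and 51.7 TPM (log2 difference -0.83, SE 0.29, adjusted P = 0.0274). None of the 3 overlapped between the groups, and the summed level of the A subunit genes went from 183 ± 5.30 to 96.5 ± 15.7 TPM (SD, n = 3).

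The size of these falls moved with the scaling, as the median of all genes did. Under median-of-ratios scaling, *Ppp3ca* differed by -0.56 (adjusted P = 0.0184) and *Ppp3cb* by -0.59 (adjusted P = 0.0169), and with no scaling beyond TPM, *Ppp3ca* differed by -1.48, *Ppp3cb* by -1.51 and *Ppp3cc* by -1.37.

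The call of *Ppp3cc* was the least firm of these. It was lost under median-of-ratios scaling (-0.43, adjusted P = 0.225), with no filter on low values (-0.63, adjusted P = 0.117) and without both libraries placed against their labels (-0.66, adjusted P = 0.110). It was also lost without TB IL-2nil replicate 2 (adjusted P = 0.0506), the library labelled TB+ IL-2 replicate 3 (adjusted P = 0.0995), TB+ IL-2nil replicate 1 (adjusted P = 0.0850) or TB+ IL-2nil replicate 2 (adjusted P = 0.0758). With the libraries grouped by label, all 7 directions were the same and only *Nfatc1* passed (1.5001, adjusted P = 0.0450, and 0.0637 with the replicate block), as did 5.38% of all genes. B cell markers fell in the same comparison, 3 of 4 at an adjusted P under 0.05, and their part in these falls was not tested.

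**Figure D2:**
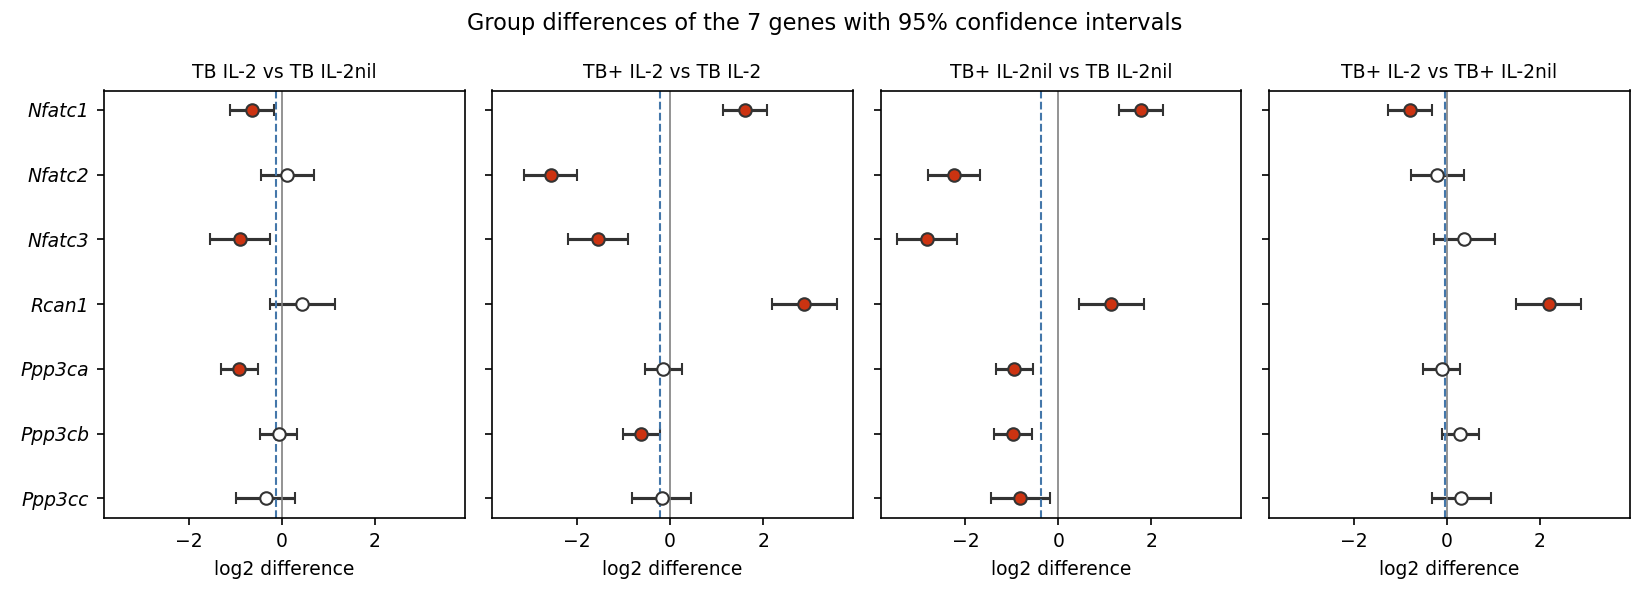
Log2 differences in log2(TPM + 1) of the 7 genes in the 4 comparisons (points) with 95% confidence intervals (bars). Red points have an adjusted P under 0.05, the grey line is 0, and the dashed blue line is the median over all 12442 genes, which is -0.13, -0.22, -0.38 and -0.04 from left to right. *Nfatc1* and *Rcan1* lie to the right and *Nfatc2* and *Nfatc3* to the left in both comparisons with PMA/I.

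As shares of the summed level of *Nfatc1*, *Nfatc2* and *Nfatc3*, which do not depend on scaling, the 3 transcripts changed places. These are shares of RNA after 2 h of PMA/I, and the levels of the NFAT proteins are not known here. *Nfat5* is not part of this sum. *Nfatc1* made up 20.2 to 24.6% in TB IL-2 and 21.4 to 30.2% in TB IL-2nil, and 74.3 to 84.0% in TB+ IL-2 and 83.6 to 91.0% in TB+ IL-2nil. No unstimulated library came near any stimulated one. *Nfatc2* made up 41.7 ± 11.3% of the sum in TB IL-2 and 7.51 ± 1.49% in TB+ IL-2, and *Nfatc3* made up 36.1 ± 9.10% and 13.8 ± 3.69% (SD, n = 3). In cells without IL-2, *Nfatc2* went from 27.4 ± 6.67% to 5.63 ± 1.31% and *Nfatc3* from 47.5 ± 2.9996% to 6.85 ± 2.55%.

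The summed level was 223.5 ± 4.25 TPM in TB IL-2, 312 ± 2.30 TPM in TB IL-2nil, 198 ± 37.6 TPM in TB+ IL-2 and 309 ± 59.0 TPM in TB+ IL-2nil (SD, n = 3). In TB IL-2, *Nfatc2* at 93.4 ± 26.1 TPM and *Nfatc3* at 80.6 ± 20.1 TPM overlapped in level, and *Nfatc1* was below both in every library. In TB IL-2nil the order was *Nfatc3*, *Nfatc2*, *Nfatc1* by the means, with *Nfatc3* above both others in every library and the ranges of *Nfatc1* and *Nfatc2* overlapping.

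**Figure D3:**
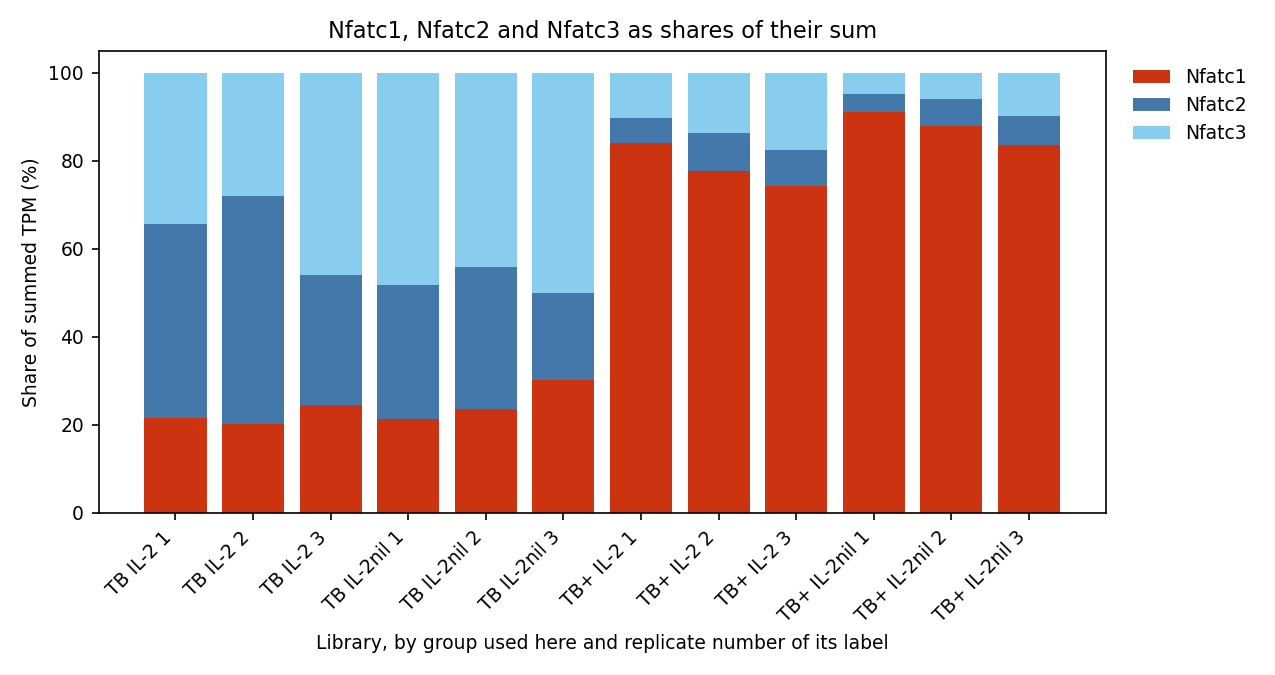
Share in percent of the summed TPM of *Nfatc1*, *Nfatc2* and *Nfatc3* held by each gene, 1 bar per library, ordered by the group used here and the replicate number of the label. *Nfatc1* holds 20.2 to 30.2% in the 6 unstimulated libraries and 74.3 to 91.0% in the 6 stimulated ones.

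IL-2 withdrawal on its own was accompanied by higher *Nfatc1*, *Nfatc3* and *Ppp3ca*. In TB IL-2 against TB IL-2nil these 3 of the 7 genes passed, all lower with IL-2, where 39.6% of all genes passed (17.3% higher and 22.3% lower), so the share of the 7 genes was close to that of all genes. None was over 3-fold, against 7.42% of all genes. The 7 genes had a median of -0.34 and all genes of -0.13. The groups did not overlap for 4 of the 7, among them *Rcan1*, against 53.2% of all genes.

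*Ppp3ca* was the firmest of the 3, at 29.4 ± 2.13 TPM in TB IL-2 and 56.7 ± 11.2 TPM in TB IL-2nil (SD, n = 3), which is -0.91 in log2(TPM + 1) (SE 0.18, adjusted P = 0.00282) and -1.08 without both libraries placed against their labels (adjusted P = 0.00385). *Nfatc3* was at 80.6 ± 20.1 and 148 ± 10.2 TPM, differing by -0.89 (SE 0.30, adjusted P = 0.0326). *Nfatc1* was at 49.5 ± 4.83 and 78.2 ± 14.8 TPM, differing by -0.64 (SE 0.21, adjusted P = 0.0342).

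The calls of *Nfatc1* and *Nfatc3* rested on single libraries. Without both libraries placed against their labels, the adjusted P was 0.137 for *Nfatc1* and 0.0531 for *Nfatc3*. Leaving out TB IL-2 replicate 1, TB IL-2 replicate 2 or the library labelled TB+ IL-2 replicate 3 ended both calls, at 0.0754, 0.0998 and 0.117 for *Nfatc1* and at 0.0718, 0.116 and 0.0791 for *Nfatc3*. Leaving out TB IL-2nil replicate 2 did the same, at 0.0608 for *Nfatc1* and 0.0581 for *Nfatc3*. TB IL-2 replicate 3 decided the call of *Nfatc1* alone (adjusted P = 0.0509 without it), and TB IL-2nil replicate 1 that of *Nfatc3* alone (adjusted P = 0.0749 without it). Both calls were also lost with no filter on low values, at 0.0566 for *Nfatc1* and 0.0574 for *Nfatc3*, and with no scaling beyond TPM, at 0.0997 and 0.108. That of *Nfatc1* was lost under median-of-ratios scaling as well (-0.55, adjusted P = 0.0682).

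The other 4 genes did not pass. *Nfatc2* differed by 0.12 (95% confidence interval -0.45 to 0.69), *Rcan1* by 0.45 (-0.25 to 1.14), *Ppp3cb* by -0.07 (-0.47 to 0.34) and *Ppp3cc* by -0.34 (-0.97 to 0.29) in log2(TPM + 1). With the libraries grouped by label, none of the 7 genes passed, the adjusted P being 0.363 for *Nfatc1*, 0.939 for *Nfatc3* and 0.468 for *Ppp3ca*, and 1 gene had an unadjusted P under 0.05, as did 11.5% of all genes. B cell markers were lower with IL-2 in the same comparison, 3 of 4 at an adjusted P under 0.05, and their part was not tested.

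After PMA/I, *Rcan1* was higher and *Nfatc1* lower in cells that had been kept in IL-2. In TB+ IL-2 against TB+ IL-2nil these were the only 2 of the 7 genes that passed, where 21.3% of all genes passed (12.9% higher and 8.4% lower). They were also the only 2 whose groups did not overlap, against 37.2% of all genes. The share of the 7 genes that passed was thus close to that of all genes, and the share that did not overlap was below it. *Rcan1* was also over 3-fold, as were 3.62% of all genes. The 7 genes had a median of 0.29 and all genes of -0.04. B cell markers were lower with IL-2 here too, 3 of 4 at an adjusted P under 0.05, with adjusted P between 0.121 and 0.647 for the 4 without both libraries placed against their labels, and their part was not tested.

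The lowest TB+ IL-2 library had 24.4 TPM of *Rcan1* and the highest TB+ IL-2nil library 11.3 TPM, and the means were 41.5 ± 19.2 and 7.96 ± 2.93 TPM (SD, n = 3). *Rcan1* was higher by 2.19 (SE 0.32, 4.57-fold, adjusted P = 0.00111), and by 2.52 without both libraries placed against their labels (adjusted P = 0.00227). By label it was 1.40 and did not pass (adjusted P = 0.476). *Rcan1* ranked 216th of 12442 genes by this difference.

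For *Nfatc1*, the means were 155.5 ± 30.8 TPM in TB+ IL-2 and 270.7 ± 58.8 TPM in TB+ IL-2nil (SD, n = 3). The difference was -0.79 (SE 0.21, adjusted P = 0.0234). The call was lost without TB+ IL-2 replicate 2 (adjusted P = 0.0864), TB+ IL-2nil replicate 1 (adjusted P = 0.0913) or the library labelled TB IL-2nil replicate 3 (adjusted P = 0.0502). It was also lost by label (-1.07, adjusted P = 0.173), without both libraries placed against their labels (-0.86, adjusted P = 0.0532), with no scaling beyond TPM (-0.40, adjusted P = 0.477) and in a fit of these 2 groups alone (-0.80, adjusted P = 0.0649).

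The genes that did not pass had intervals on both sides of 0. *Nfatc2* differed by -0.21 (95% confidence interval -0.78 to 0.36), *Nfatc3* by 0.38 (-0.27 to 1.03), *Ppp3ca* by -0.11 (-0.51 to 0.28), *Ppp3cb* by 0.29 (-0.11 to 0.69) and *Ppp3cc* by 0.31 (-0.32 to 0.95) in log2(TPM + 1). The NFAT genes that fell with PMA/I had means with and without IL-2 of 14.7 ± 3.19 and 17.0 ± 3.09 TPM for *Nfatc2* and 27.5 ± 10.6 and 20.9 ± 7.86 TPM for *Nfatc3* (SD, n = 3).

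Whether the response to PMA/I depended on IL-2 was tested as an interaction, the difference between the responses with and without IL-2. It was 1.75 (SE 0.45) for *Rcan1*, 1.27 (SE 0.42) for *Nfatc3* and 0.80 (SE 0.26) for *Ppp3ca*, with adjusted P = 0.0537, 0.107 and 0.1002. None of the 7 genes passed, where 4.23% of all genes passed, and 3 had an unadjusted P under 0.05, as did 23.1% of all genes. With the replicate number as a block, 2 passed, *Rcan1* at an adjusted P = 0.0236 and *Nfatc3* at 0.0161, and the number of genes that passed went from 526 to 1478 (11.9%). In fits without the block, *Rcan1* passed with a pseudocount of 5 (adjusted P = 0.0348), a filter of over 5 TPM (adjusted P = 0.0468) and deposited FPKM (adjusted P = 0.0324).

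The sign means that the rise of *Rcan1* was larger with IL-2 and the fall of *Nfatc3* and *Ppp3ca* smaller. Exchanging the groups of the 2 libraries leaves the size of this contrast as it is and changes its error, and by label the adjusted P was 0.914 for each of the 3 genes. Without both libraries it was 1.92 for *Rcan1* (adjusted P = 0.0814), 0.95 for *Nfatc3* (adjusted P = 0.278) and 0.93 for *Ppp3ca* (adjusted P = 0.124), and 4 genes of the whole table passed. Without the library labelled TB IL-2nil replicate 3, *Rcan1* passed (2.07, adjusted P = 0.0488), and without TB+ IL-2nil replicate 3, *Nfatc3* passed (1.55, adjusted P = 0.0336). For *Nfatc1* the interaction was -0.16 (95% confidence interval -0.82 to 0.51), and for *Nfatc2* it was -0.33 (-1.13 to 0.48).

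The other genes of these families were *Nfat5*, *Rcan3* and *Ppp3r1*, and *Nfatc4*, *Rcan2* and *Ppp3r2*, which stayed under 1 TPM in every library and were not tested. *Nfat5*, an NFAT relative that responds to osmotic stress and is not bound by calcineurin, changed in the same directions as *Nfatc1*. Its mean was 11.8 ± 5.61 TPM in TB IL-2, 28.3 ± 4.79 in TB IL-2nil, 45.6 ± 15.3 in TB+ IL-2 and 92.3 ± 18.2 TPM in TB+ IL-2nil (SD, n = 3). It rose by 1.89 in log2(TPM + 1) with PMA/I in IL-2 (adjusted P = 0.00115) and by 1.67 without IL-2 (adjusted P = 8.94e-04), and it was lower with IL-2 by -1.27 in unstimulated (adjusted P = 0.00926) and by -1.04 in stimulated cells (adjusted P = 0.0390, and 0.175 without both libraries placed against their labels).

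*Rcan3*, another member of the RCAN family, moved opposite to *Rcan1*. It had 50.4, 47.9 and 15.6 TPM in TB IL-2, 60.3, 69.2 and 19.0 TPM in TB IL-2nil, 4.02, 5.11 and 6.30 TPM in TB+ IL-2 and 5.18, 4.10 and 8.36 TPM in TB+ IL-2nil. Among unstimulated libraries those with replicate number 3 were the lowest, and they were still above all stimulated ones. It changed by -2.51 (SE 0.52, adjusted P = 0.00359) in TB+ IL-2 against TB IL-2 and -2.73 (SE 0.52, adjusted P = 8.57e-04) in TB+ IL-2nil against TB IL-2nil.

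*Ppp3r1*, the regulatory B subunit, had levels of 52.2 ± 3.68 TPM in TB IL-2, 46.4 ± 7.87 in TB IL-2nil, 49.5 ± 5.87 in TB+ IL-2 and 31.9 ± 5.24 TPM in TB+ IL-2nil (SD, n = 3). It fell with PMA/I in cells without IL-2 (-0.52, adjusted P = 0.0238), as did all 3 A subunit genes. It was higher in TB+ IL-2 than in TB+ IL-2nil (0.62, adjusted P = 0.0302, and 0.113 without both libraries placed against their labels). In TB+ IL-2 against TB IL-2 it differed by -0.08 (95% confidence interval -0.47 to 0.31).

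Transcripts of genes for proteins that bind calcineurin, by themselves or together with a drug, differed by IL-2. Of 7 such genes tested, 4 were higher and 3 lower in TB IL-2 than in TB IL-2nil, where 39.6% of all genes passed (17.3% higher and 22.3% lower). Their median was 0.993 in log2(TPM + 1), and that of all genes -0.13. Without both libraries placed against their labels, 4 were higher and 1 lower, where 32.1% of all genes passed, the lost calls being *Cabin1* (adjusted P = 0.0587) and *Akap5* (adjusted P = 0.106). The 4 that were higher in cells kept in IL-2 included *Ppia* (cyclophilin A, known to bind calcineurin in complex with cyclosporin A, 1.70, adjusted P = 8.16e-05). The others were *Fkbp1a* (FKBP12, known to do so with FK506, 1.14, adjusted P = 2.87e-04), the calmodulin gene *Calm3* (1.001, adjusted P = 0.00248) and *Calm2* (0.99, adjusted P = 5.44e-04). *Ppia* was at 3748 ± 595 TPM in TB IL-2 and 1147 ± 80.9 TPM in TB IL-2nil (SD, n = 3).

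None of the 7 passed in TB+ IL-2 against TB IL-2 by limma, and none did at an unadjusted P under 0.05, where 35.1% of all genes passed the adjusted and 45% the unadjusted test. In TB+ IL-2nil against TB IL-2nil, 1 was higher, *Fkbp1a* (0.79), and 3 were lower, *Chp1* (-0.73), *Calm3* (-0.69) and *Akap5* (-0.47, and adjusted P = 0.0914 without both libraries placed against their labels), where 20.1% of all genes were higher and 41.1% lower. After PMA/I, 3 of the 7 were higher with IL-2, where 12.9% of all genes were, namely *Ppia* (1.42, adjusted P = 3.73e-04), *Calm3* (1.38) and *Calm2* (0.73), and *Fkbp1a* was the 1 gene of the list whose interaction passed (-0.94, adjusted P = 0.0354, and 0.0930 without both libraries).

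Among the 9 genes for NFAT kinases and export, *Xpo1*, the exporter that carries NFAT out of the nucleus, had the largest IL-2 difference. It was at 144 ± 15.4 TPM in TB IL-2, 39.5 ± 1.19 in TB IL-2nil, 79.7 ± 10.8 in TB+ IL-2 and 22.6 ± 8.56 TPM in TB+ IL-2nil (SD, n = 3). It was higher with IL-2 by 1.84 before (adjusted P = 2.16e-04) and 1.82 after PMA/I (adjusted P = 4.88e-04), and it fell with PMA/I by -0.85 with IL-2 (adjusted P = 0.0135) and -0.84 without (adjusted P = 0.00744). In this list 1 gene was higher and 3 lower in TB IL-2 than in TB IL-2nil, where 39.6% of all genes passed, with *Dyrk1b* (-1.76), *Dyrk2* (-1.26) and *Csnk1d* (-0.55) the lower ones. With PMA/I, 2 were higher and 2 lower in IL-2, where 35.1% of all genes passed, and 2 were higher and 4 lower without IL-2, where 61.2% did, so both counts were close to the share of all genes. *Gsk3b*, a kinase that phosphorylates NFAT, fell in both, by -0.92 (adjusted P = 0.00518) and -1.54 (adjusted P = 7.28e-05), and *Dyrk1a* rose in both, by 0.64 (adjusted P = 0.0285) and 0.94 (adjusted P = 0.00180). After PMA/I, 1 was higher and 1 lower with IL-2, close to the 21.3% of all genes that passed, namely *Xpo1* and *Dyrk2* (-0.62, adjusted P = 0.0346, and 0.0530 without both libraries placed against their labels). With the replicate block, 2 were higher and 5 lower in TB IL-2 against TB IL-2nil, where 50.8% of all genes passed, and 2 were higher and 2 lower with IL-2 after PMA/I, where 33.6% did.

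Of 5 genes in the list named NFAT scaffolds 4 were tested, and *Homer2* stayed under 1 TPM in every library. Whether the product of each gene of this list binds NFAT was not tested. *Homer1*, which encodes a scaffold protein of the Homer family, rose with PMA/I by 2.16 with IL-2 (adjusted P = 2.95e-04) and 2.25 without (adjusted P = 6.63e-05). *Nron*, a noncoding RNA that holds NFAT in the cytoplasm, fell by -0.87 (adjusted P = 0.00349) and -1.80 (adjusted P = 1.19e-05), and was lower in TB IL-2 than in TB IL-2nil by -0.98 (adjusted P = 0.00175). Its level was low, with means of 0.97 TPM in TB IL-2, 2.91 in TB IL-2nil, 0.07 in TB+ IL-2 and 0.11 TPM in TB+ IL-2nil. The size of its differences therefore depends on the added 1. No other gene of this list passed in these comparisons, and none passed between TB+ IL-2 and TB+ IL-2nil by limma (2 at an unadjusted P under 0.05, where 35.2% of all genes were, and 2 passed with the replicate block, where 33.6% did).

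In the calcium entry list, *Orai1*, the pore of the store-operated calcium channel, stood out. It was at 22.7, 25.9 and 18.5 TPM in TB IL-2, 34.96, 24.1 and 24.6 TPM in TB IL-2nil, 195, 165 and 168 TPM in TB+ IL-2 and 286, 246 and 258 TPM in TB+ IL-2nil. Stimulated and unstimulated libraries were far apart. It rose by 2.93 with IL-2 (SE 0.18, adjusted P = 1.51e-06) and by 3.21 without (SE 0.18, adjusted P = 4.51e-07), and was lower in TB+ IL-2 than in TB+ IL-2nil (-0.58, adjusted P = 0.0436, and 0.149 without both libraries placed against their labels). Its relative *Orai3* fell by -1.22 with IL-2 (adjusted P = 0.00255) and -1.86 without (adjusted P = 6.06e-05), and *Orai2* fell by -2.19 without IL-2 (adjusted P = 0.00138).

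Of the 9 genes in that list, 6 were lower and none higher in TB IL-2 than in TB IL-2nil, where 22.3% of all genes were lower and 17.3% higher, with *Orai2* (-1.79, adjusted P = 0.00901), *Plcg1* (-1.49, adjusted P = 8.69e-04), *Itpr2* (-1.24, adjusted P = 0.0190) and *Stim1* (-0.91, adjusted P = 0.0251, and 0.0768 without both libraries placed against their labels) changing most. *Plcg1*, the phospholipase that starts calcium release after receptor engagement, was also lower after PMA/I, by -0.69 with IL-2 (adjusted P = 0.0419, and 0.0745 without both libraries) and -1.42 without (adjusted P = 3.71e-04). With PMA/I, 1 was higher and 2 lower in IL-2, where 35.1% of all genes passed, and 2 were higher and 5 lower without IL-2, where 61.2% did. With the replicate block, 7 were lower in TB IL-2 against TB IL-2nil, 3 were lower with PMA/I in IL-2, *Orai2* among them (-0.66, adjusted P = 0.0370), and 6 without IL-2, *Itpr2* among them (-0.82, adjusted P = 0.0126). In these blocked fits 50.8%, 46.3% and 69.1% of all genes passed. After PMA/I, 3 were lower with IL-2, where 8.4% of all genes were, namely *Plcg1* (-0.76), *Stim2* (-0.61) and *Orai1*. None of the 3 passed without both libraries placed against their labels, at adjusted P = 0.106, 0.183 and 0.149, where 9.64% of all genes did.

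**Figure D4:**
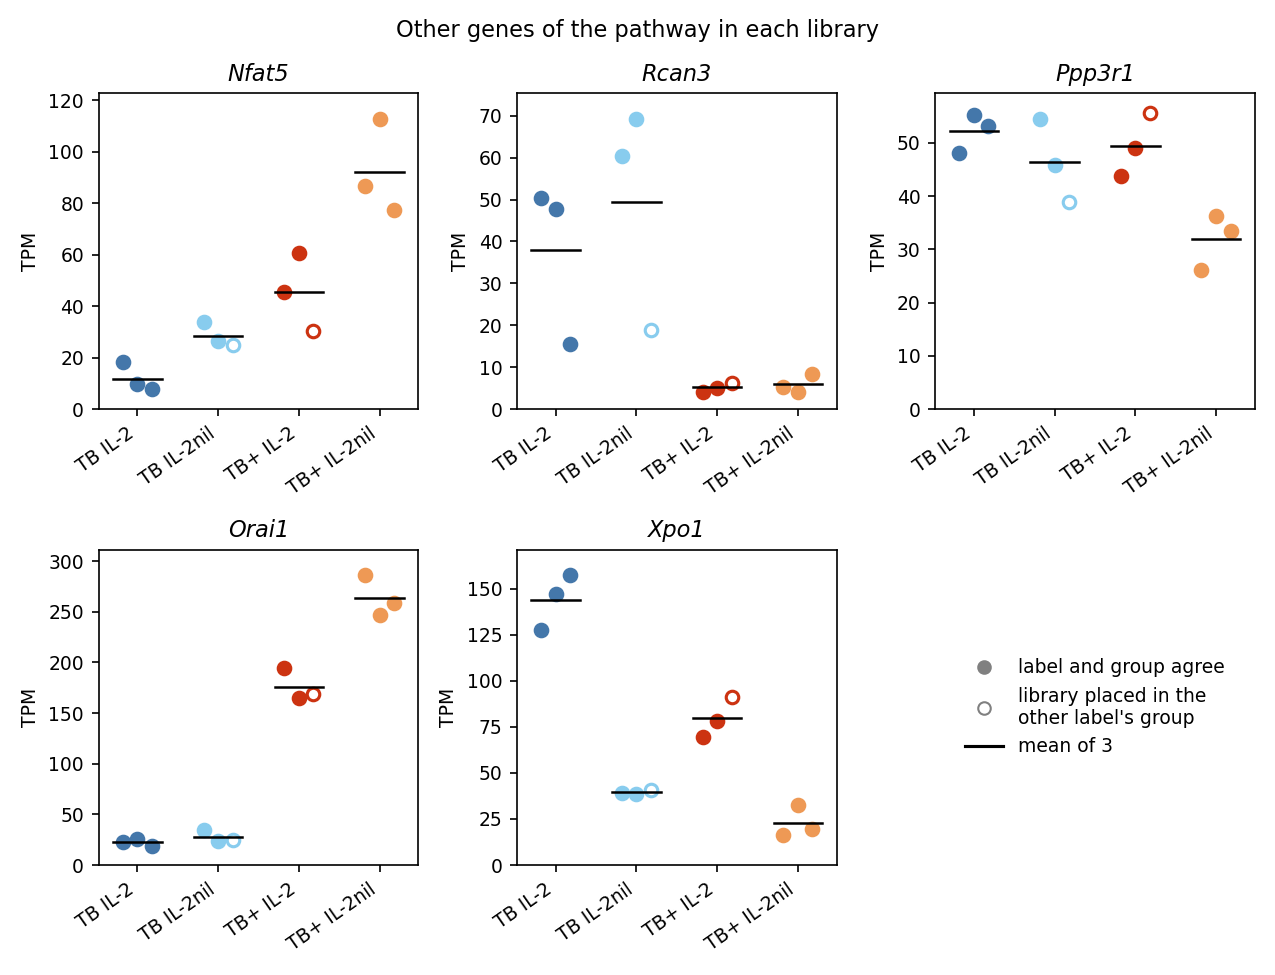
Level in TPM (scaled to a common upper quartile, linear axis from 0) of *Nfat5*, *Rcan3*, *Ppp3r1*, *Orai1* and *Xpo1* in each library, by group, with means of 3 as black lines and open circles for the 2 libraries placed in the group of each other's label. *Orai1* is at 18.5 to 34.96 TPM in unstimulated and 165 to 286 TPM in stimulated libraries, and *Xpo1* is higher with IL-2 than without in both states.

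Of other factors that calcineurin dephosphorylates, 8 genes were tested. *Tfeb*, a regulator of lysosomal genes, fell with PMA/I by -2.23 with IL-2 (adjusted P = 3.24e-04) and -2.75 without (adjusted P = 2.35e-05), and *Crtc3*, a coactivator of CREB, by -1.45 (adjusted P = 0.00100) and -2.27 (adjusted P = 1.67e-05). *Mef2a* rose by 0.76 (adjusted P = 0.00978) and 1.17 (adjusted P = 3.12e-04). In all, 1 of 8 genes was higher and 3 lower in TB+ IL-2 against TB IL-2, where 35.1% of all genes passed, and 2 were higher and 5 lower in TB+ IL-2nil against TB IL-2nil, where 61.2% did. In TB IL-2 against TB IL-2nil, 4 were lower, as were 22.3% of all genes, led by *Mef2d* (-1.46, adjusted P = 1.34e-04) and *Crtc3* (-1.16, adjusted P = 0.00335). After PMA/I 3 were lower with IL-2, as were 8.4% of all genes, led by *Crtc1* (-0.80, adjusted P = 0.0149, and 0.0619 without both libraries placed against their labels). Without both libraries 1 of the 8 was lower after PMA/I, where 9.64% of all genes passed. With the replicate block 4 were, where 33.6% of all genes passed. The interaction passed for 0 of the 8 without the block and for 2 with it, where 4.23% and 11.9% of all genes passed.

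All 15 genes of the list of known NFAT targets rose with PMA/I, both with and without IL-2, while 11.8% and 20.1% of all genes rose. The list was chosen with earlier results of these data known. It also holds *Il2*, by which the labels of the libraries were checked. This count is therefore no independent test of NFAT targets as a set. The largest rises with IL-2 were those of *Il3* (11.67 in log2(TPM + 1)), *Il2* (11.67), *Csf2* (9.17) and *Egr3* (8.84), and without IL-2 those of *Il2* (10.79), *Il3* (9.65), *Nr4a1* (9.63) and *Il13* (8.87), each against levels near 0 in unstimulated cells. Both rises passed for all 15 genes without both libraries placed against their labels, where 30.7% and 53.4% of all genes passed. By label neither rise passed for any of the 15. In TB+ IL-2 against TB IL-2 the differences by label were still positive. They lay between 0.91 for *Tnfrsf9* (limma, adjusted P = 0.818) and 8.17 for *Il3* (adjusted P = 0.286).

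Among those targets 2 were higher and 1 lower in TB+ IL-2 than in TB+ IL-2nil, close to the 21.3% of all genes that passed, namely *Csf2* (1.97, adjusted P = 0.00323), *Il3* (1.36, adjusted P = 0.0478) and *Egr2* (-0.81, adjusted P = 0.0200, and 0.0982 without both libraries placed against their labels). In unstimulated cells 3 were higher and 1 lower with IL-2, where 39.6% of all genes passed. Those that passed were *Tnf* (3.01, adjusted P = 0.00144), *Tnfrsf9* (2.25, adjusted P = 0.00115), *Cd40lg* (-1.46, adjusted P = 0.00800) and *Csf2* (1.44, adjusted P = 0.00810). With the replicate block these counts were 3 higher and 2 lower in stimulated and 5 higher and 2 lower in unstimulated cells, where 33.6% and 50.8% of all genes passed. None of the 15 passed the interaction by limma, while 5 had an unadjusted P under 0.05, as did 23.1% of all genes, and 3 passed with the replicate block, as did 11.9%.

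The genes closest in pattern to each member were found by the root-mean-square difference of centred log2(TPM + 1) profiles over the 12 libraries, where 0 is an identical shape. Those nearest to *Nfatc1* were 4933416M07Rik (0.19), *Kdm2b* (0.21), *Mafk* (0.24), *Bcl10* (0.25) and *Tgoln1* (0.25). Nearest to *Nfatc2* were *Dexi* (0.28), *Slc9a3r1* (0.28), *Il10rb* (0.28), *Zbtb7b* (0.30) and *Trim65* (0.31). Nearest to *Nfatc3* were *Narf* (0.17), *Selplg* (0.21), A930006K02Rik (0.22), *Limk2* (0.24) and *Add3* (0.25). Some of these named genes were low in part of the libraries, where the added 1 also shapes their distance. In TB+ IL-2nil, A930006K02Rik was at most 0.745 TPM, *Trim65* 1.24 TPM, *Dexi* 3.73 TPM and *Narf* 3.85 TPM. In TB IL-2, 4933416M07Rik was at most 2.87 TPM.

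The 5 nearest genes of *Rcan1* and of *Ppp3ca* are not named, as they were at most 8.05 and 2.65 TPM in any library, where the added 1 compresses large fold changes. *Ppp3cb* and *Ppp3cc* were left out of this, as their group means spanned less than 1 in log2(TPM + 1).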

How the data were processed

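RNA-Seq reads of 12 libraries were trimmed by the authors with Trimmomatic 0.32, aligned to mm9 with HISAT2 2.1.0 and quantified on RefSeq models with StringTie 1.3.3. The deposited values are FPKM for 24439 gene names (the methods name TPM), summing to 193815 to 420487 per library. They hold no read counts, so no counting interval is given. Relative depth was read from the commonest ratio of values under 1 FPKM between libraries.

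Here FPKM were converted to TPM, and 12442 genes, all 7 members among them, were kept that exceeded 1 TPM anywhere. After bringing libraries to the same 75th percentile, limma models of 4 groups were fitted to log2(TPM + 1) (limma 3.58.1, R 4.3.3) with 8 residual degrees of freedom, as in the study's methods, with Benjamini-Hochberg adjustment. The steps were tested on simulated data. Python 3.11.15, numpy 2.4.6, pandas 2.3.3 and matplotlib 3.10.9 did the rest. The time in IL-2 before withdrawal is 30 h in the methods and 2 days in the labels.

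Members and gene lists were chosen with earlier results of these data known. Some genes of these lists are not reported here. Named were the 7 members, their other family genes, up to 4 genes with the largest differences past the test per list and comparison, and the 5 genes nearest in pattern (left out, after their values were seen, for *Rcan1* and *Ppp3ca*). Placement used a match of each column of the authors' list to the deposited libraries over 1391 genes. Libraries of 1 replicate number deviated together from their group means, with all 18 correlations between 0.101 and 0.531, so the number was used as a block in an alternative. The number comes from the labels, which do not say what it marks. Alternatives were grouping by label, leaving out libraries, the block, pseudocounts, filters, scalings, FPKM in place of TPM, an intensity trend and fits of 2 groups. The promoter motifs were searched after the data were seen, in windows shortened to 250 bases to leave out transcribed bases. Gene positions are from GENCODE M1 on mm9, while quantification used RefSeq.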

Additional observations from a re-analysis of the deposited data

Results flagged for a closer look

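The response of *Rcan1* to PMA/I differed between cells with and without IL-2 when the replicate number was a block, by 1.75 in log2(TPM + 1) (limma, adjusted P = 0.0236), and so did that of *Nfatc3*, by 1.27 (adjusted P = 0.0161). In the same fit without the block neither passed, at adjusted P = 0.0537 and 0.107. *Rcan1* also passed without the block with a pseudocount of 5 (0.0348), a filter of over 5 TPM (0.0468), deposited FPKM (0.0324) and without the library labelled TB IL-2nil replicate 3 (0.0488), and *Nfatc3* without TB+ IL-2nil replicate 3 (0.0336). Over all alternatives the adjusted P lay between 0.0236 and 0.914 for *Rcan1* and between 0.0161 and 0.914 for *Nfatc3*. The block was used for this comparison of responses after the values without it had been seen.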

How the results depend on the processing

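In the order TB IL-2 against TB IL-2nil, TB+ IL-2 against TB IL-2, TB+ IL-2nil against TB IL-2nil, TB+ IL-2 against TB+ IL-2nil and the interaction, 923, 876, 2296, 451 and 526 genes were called (over 3-fold and adjusted P under 0.05, or the adjusted P alone for the interaction), and 3, 5, 7, 2 and 0 of the 7 genes had an adjusted P under 0.05. Of 903 values of the 7 genes under alternatives, 800 kept their direction and their side of the threshold, 70 kept the direction and lost the call, 7 gained one and 26 changed direction, all 26 in values that were not called.

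Grouping by label gave 12, 44, 255, 15 and 0 genes called (413 for the interaction at an unadjusted P under 0.05 in limma) and 0, 0, 1 and 0 of the 7 genes (1, 3, 4 and 1 unadjusted). With the replicate block and labels these were 28, 49, 171, 40 and 0 genes (452 unadjusted) and 0, 0, 0 and 0 of the 7 (1, 2, 3 and 1 unadjusted). Both label groupings turned the direction in TB IL-2 against TB IL-2nil for *Rcan1* (-0.35) and *Ppp3cb* (0.078), in TB+ IL-2 against TB IL-2 for *Ppp3ca* (0.064) and *Ppp3cc* (0.028), and in TB+ IL-2 against TB+ IL-2nil for *Nfatc2* (0.36) and *Ppp3ca* (0.10). With the block alone, the interaction had 1478 genes called and 2 of the 7, and no other call of the 7 genes changed. In the lists of other genes the block kept all 150 calls and added 35. Without both libraries placed against their labels, 1 of the 7 passed in TB IL-2 against TB IL-2nil and 1 in TB+ IL-2 against TB+ IL-2nil, the interaction had 4 genes, and *Nfatc2* turned to -0.095 in TB IL-2 against TB IL-2nil.

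A pseudocount of 0.1 gave 1470, 3472, 691 and 241 genes in all but the first comparison, and 1 of 5 gave 484, 439, 1212, 210 and 842, with 1 of the 7, *Rcan1*, in the interaction. Deposited FPKM gave 614, 549, 1505 and 287 genes and *Rcan1* as 1 of the 7 in the interaction, as did a filter of over 5 TPM. No filter left 1 of the 7 in TB IL-2 against TB IL-2nil, and fits of 2 groups left 1 in TB+ IL-2 against TB+ IL-2nil. No scaling beyond TPM left 1 in each of these and 1 gene in the interaction, and turned *Nfatc2* (0.16) and *Ppp3ca* (0.27) in TB+ IL-2 against TB+ IL-2nil and *Nfatc1* (0.32) and *Nfatc2* (0.12) in the interaction. Quantile normalization turned *Nfatc1* in the interaction (0.0052), and median-of-ratios scaling turned *Ppp3cb* in TB IL-2 against TB IL-2nil (0.025) and *Ppp3ca* (0.092) and *Ppp3cc* (0.069) in TB+ IL-2 against TB IL-2. The cause was not tested.

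Leaving out 1 library gave 806 to 1081, 772 to 1045, 2088 to 2719, 357 to 512 and 84 to 1302 genes, and 1 to 3, 4 to 5, 6 to 7, 1 to 2 and 0 to 1 of the 7. *Nfatc2* ranged from -0.094 to 0.35 in TB IL-2 against TB IL-2nil, *Ppp3cc* from -0.42 to 0.10 in TB+ IL-2 against TB IL-2, and *Nfatc1* from -0.30 to 0.018 in the interaction. Depth is known in relative terms only, so the counting error of *Rcan1* at 2.39 TPM in the shallowest library is not known.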
